A study of Mus musculus with 2 samples.

Results

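The gene set examined here comprised 7 transcription factors of the anterior eye segment, the forkhead factors Foxc1, Foxc2 and Foxd1, the LIM homeodomain factor Lmx1b, the AP-2 factors Tfap2a and Tfap2b, and the paired box factor Pax6. They were chosen by symbol, and each of the 7 matched 1 row in both count matrices. Single-cell transcriptomes had been collected from dissociated anterior segments, with the iris removed, of NC-Foxc2-/- mice (Foxc2 flox/flox;Wnt1Cre+) and of control mice (Foxc2 flox/flox, called wild type in the series text), both on a mixed strain. Both groups thus carried the floxed allele, and only the NC-Foxc2-/- mice carried the Cre, whose Wnt1 promoter drives recombination in the neural crest lineage. According to the study's text, the NC-Foxc2-/- mice were selected for ocular phenotypes of moderate degree, so they do not stand for the whole range of the mutant. Each group was 1 library made from the pooled eyes of 4 to 6 mice, labelled 4 weeks old and given as 3 to 4 weeks in the protocol. With 1 library per genotype there is no replicate check and no test between genotypes, mice cannot be told apart, and each difference below is between these 2 libraries. The study lists Xist as higher and Ddx3y as lower in a trabecular meshwork cluster of NC-Foxc2-/- mice, so the pools may differ in sex makeup. Such a difference cannot be told apart from genotype here.

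Mesenchymal cells derived from the neural crest migrate between the lens and the surface ectoderm and form the corneal stroma, the corneal endothelium and the trabecular meshwork, the sieve through which aqueous humor leaves the eye. FOXC1 and FOXC2 are closely related forkhead proteins that are both present in this mesenchyme, and mutations of human FOXC1 cause Axenfeld-Rieger malformations with glaucoma. LMX1B is mutated in nail-patella syndrome, which can include glaucoma, and AP-2β, the product of Tfap2b, is needed in mice for the corneal endothelium. PAX6 is required for the development of the lens, the retina and the corneal epithelium. FOXD1 marks the temporal retina and mesenchymal progenitors of other organs, and AP-2α acts in the neural crest and the surface ectoderm.

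Since closely related genes could share reads, the most similar coding stretches of the paralogues are shown, read from GENCODE M21 transcripts of the GRCm38 assembly (mm10). The first set is the 60 coding bases in which Foxc1 and Foxc2 are most alike, and capitals mark bases of Foxc2 that differ from Foxc1.
Foxc1: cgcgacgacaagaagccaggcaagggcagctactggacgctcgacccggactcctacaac
Foxc2: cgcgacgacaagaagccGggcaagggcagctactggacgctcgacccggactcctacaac
These stretches lie in the single exon of each gene, at chr13:31807628-31807687 for Foxc1 and chr8:121117014-121117073 for Foxc2, both on the plus strand. Foxc1 and Foxc2 had 59 of the 60 bases in common. The second set is the 60 coding bases in which the AP-2 genes are most alike, with capitals where Tfap2a differs from Tfap2b.
Tfap2b: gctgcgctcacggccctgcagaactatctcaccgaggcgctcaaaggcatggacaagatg
Tfap2a: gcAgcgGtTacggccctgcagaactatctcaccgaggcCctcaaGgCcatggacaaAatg
They lie in exon 7 of Tfap2b (chr1:19234201-19234260, plus strand) and exon 6 of Tfap2a (chr13:40717193-40717252, minus strand), and had 53 of 60 bases in common. The libraries count the 3' end of transcripts, and there the members did not overlap. None of the 31-base words in the last 500 bases of any member's transcripts occurred in another member, and for Foxc1, Foxc2, Lmx1b, Tfap2b and Foxd1 none occurred in a transcript of any other gene. Of such words, 26 of 2701 for Tfap2a and 35 of 4391 for Pax6 were found in other genes.

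The matrices held 11656 barcodes for NC-Foxc2-/- mice and 11285 for control mice, of which 10872 and 10773 cells had at most 8% mitochondrial unique molecular identifiers (UMIs, each counting 1 captured molecule). The median kept cell had 6517 UMIs in NC-Foxc2-/- mice and 7663 in control mice, and 52 barcodes occurred in both libraries. Cells kept the names of the study where its source data could be matched, namely the beam and juxtacanalicular meshwork clusters TM-1, TM-2 and TM-3, the uveal meshwork, the fibroblasts and the endothelial cells. The other classes are rebuilt clusters, called "-like" after their markers. Levels are UMIs of a gene per 1000000 UMIs of its class (CPM) with exact Poisson 95% intervals, and ratios are NC-Foxc2-/- over control with exact conditional binomial 95% intervals. All intervals cover counting error only. Over all kept cells the members summed to between 267 UMIs for Foxd1 and 24067 for Foxc1. The classes differed in size between the libraries, so levels over whole libraries mix both. Foxc1, for example, had 135.7 CPM over all cells in NC-Foxc2-/- mice and 93.8 CPM in control mice, where keratocyte-like cells numbered 2884 in NC-Foxc2-/- mice and 1858 in control mice. Corneal endothelial-like cells numbered 9 in NC-Foxc2-/- mice and 170 in control mice, conjunctival epithelial-like cells 35 in NC-Foxc2-/- mice and 542 in control mice, and neither class is compared between genotypes.

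In NC-Foxc2-/- mice Foxc2 was lower in the meshwork, fibroblasts and mural cells, Tfap2b was lower in fibroblasts, and Foxd1 was higher in TM-1, while Foxc1 was at like levels in the meshwork (190.0 CPM in NC-Foxc2-/- mice and 190.3 CPM in control mice). With 1 library per genotype a difference was counted by size, at a ratio of 2 or more, or of 0.5 or less, for a gene with 50 UMIs or more in both libraries together. Of the 7 members, 6 reached 50 UMIs in the pooled meshwork (TM-1 to TM-3 and uveal), and 3 of them passed, Foxd1 and Tfap2a higher and Foxc2 lower, where 4.41% of all 12118 genes with 50 UMIs passed. Tfap2a did so on 41 UMIs in NC-Foxc2-/- mice and 11 in control mice, so it reached 50 UMIs mainly through the former. With each cell thinned to 1000 UMIs its ratio was 1.35, on few UMIs. In TM-1 Foxd1 and Foxc2 passed among 5 members (3.94% of all genes). Foxc2 alone passed among 3 members in TM-2 (4.65%), among 4 in TM-3 (5.93%), among 4 in the uveal meshwork (3.54%), among 3 in pericyte-like cells (9.26%), among 4 in smooth muscle-like cells (3.36%) and among 2 in endothelial cells (7.12%). In fibroblasts Foxc2 and Tfap2b passed among 4 members, where 10.9% of all genes did. Foxc2 passed upward among 4 members in cluster 0 of the keratocyte-like cells (3.36%), and Tfap2b among 2 in photoreceptor-like cells (12.5%). None passed among 4 members in all keratocyte-like cells (3.44%), 2 in Schwann cell-like cells (3.94%), 4 in corneal epithelial-like cells (4.02%) and 6 in limbal epithelial-like cells (7.77%). The median gene differed between the libraries by 0.03 on the log2 scale in the pooled meshwork, by -0.02 in fibroblasts and by -0.14 in limbal epithelial-like cells.

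The deleted gene, Foxc2, encodes a forkhead activator that is also needed for lymphatic vessels, and all 4 meshwork clusters, fibroblasts, pericyte-like and smooth muscle-like cells had less of it in NC-Foxc2-/- mice. Over the meshwork clusters together it had 119 UMIs (7.98 CPM, 6.61 to 9.54) in NC-Foxc2-/- mice and 764 UMIs (45.3 CPM, 42.2 to 48.6) in control mice, a ratio of 0.176 (0.144 to 0.214). The sources used here do not state which part of the gene the floxed allele removes, so the remaining 3' tags cannot be read as intact transcripts, and the counts check the label only as far as that. The uveal meshwork had 45 UMIs (13.0 CPM) in NC-Foxc2-/- mice and 407 (68.6 CPM) in control mice, TM-1 had 25 in NC-Foxc2-/- mice and 146 in control mice, TM-2 had 11 in NC-Foxc2-/- mice and 42 in control mice, and TM-3 had 38 in NC-Foxc2-/- mice and 169 in control mice. Smooth muscle-like cells had 6 UMIs (3.25 CPM) in NC-Foxc2-/- mice and 67 (17.8 CPM) in control mice, a ratio of 0.183 (0.0648 to 0.419). The size of the difference varied among the classes. In fibroblasts 4 UMIs (0.670 CPM) were left in NC-Foxc2-/- mice, against 155 (46.7 CPM) in control mice. In pericyte-like cells, the class with the highest Foxc2 level in control mice, there were 6 UMIs (2.41 CPM) in NC-Foxc2-/- mice and 214 (130.4 CPM) in control mice. The fibroblast ratio was 0.0144 (0.00387 to 0.0375) and that of pericyte-like cells 0.0185 (0.00671 to 0.0409), whereas those of the meshwork clusters lay between 0.189 in TM-3 and 0.222 in TM-1. The intervals of fibroblasts and of pericyte-like cells did not reach those of the meshwork clusters. The 2 uveal meshwork markers summed to 37.7 CPM in fibroblasts of NC-Foxc2-/- mice and 243 CPM in those of control mice, and the 7 fibroblast markers to 7537 CPM in NC-Foxc2-/- mice and 10793 CPM in control mice, and their part in the fibroblast ratio was not tested.

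The Foxc2 signal left in the mutant meshwork was set against that of leukocytes (macrophage-like and NK/T/B cell-like cells), which should lack the gene. Leukocytes had 3.06 CPM in NC-Foxc2-/- mice and 4.29 CPM in control mice. Low levels varied among the other classes. Corneal epithelial-like cells had 0.818 CPM in NC-Foxc2-/- mice and 0.212 CPM in control mice, and erythrocyte-like cells had 0 UMIs in both. Limbal epithelial-like cells had 2.88 CPM in NC-Foxc2-/- mice and 5.15 CPM in control mice. A level like that of leukocytes therefore does not show that a class lacks the gene. In NC-Foxc2-/- mice the level was 4.25 times that of leukocytes in the uveal meshwork (2.33 to 8.21), 2.86 times in TM-1 (1.45 to 5.83) and 3.08 times in TM-2 (1.28 to 7.19), while in TM-3 the ratio of 1.66 (0.894 to 3.26) included equality. In control mice the same 4 clusters stood between 6.30 and 16.0 times above leukocytes. Within TM-3 the remaining Foxc2 was uneven. The TM-3 cells of rebuilt cluster 6 held 35 UMIs (8.24 CPM) in NC-Foxc2-/- mice and 127 (25.0 CPM) in control mice, while those of cluster 9 held 2 UMIs (0.698 CPM) in NC-Foxc2-/- mice and 30 (31.3 CPM) in control mice. The ratios were 0.330 (0.220 to 0.482) in cluster 6 and 0.0223 (0.00258 to 0.0878) in cluster 9.

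Keratocyte-like cells, the stromal cells of the cornea, ran the other way. Foxc2 had 422 UMIs (9.75 CPM, 8.84 to 10.7) in NC-Foxc2-/- mice and 172 UMIs (5.64 CPM, 4.83 to 6.55) in control mice, a ratio of 1.73 (1.44 to 2.08), under the 2-fold limit. The difference lay in cluster 0, with 10.4 CPM in NC-Foxc2-/- mice and 4.27 CPM in control mice, and not in cluster 4, with 8.36 CPM in NC-Foxc2-/- mice and 8.70 CPM in control mice. The ratio in cluster 0 was 2.42 (1.91 to 3.10). Of cluster 4, 18.01% of cells were called doublets, against 0.0300% of cluster 0. These levels are low. The class as a whole stood 3.18 times above leukocytes in NC-Foxc2-/- mice (1.91 to 5.74). In control mice the ratio to leukocytes of 1.32 included equality (0.776 to 2.40). There the level of 5.64 CPM did not stand apart from that of Schwann cell-like cells (5.56 CPM). Limbal epithelial-like cells had 5.15 CPM in control mice and corneal epithelial-like cells 0.212 CPM. After each cell had been thinned to 1000 UMIs the class ratio was 1.19, from 24 UMIs in NC-Foxc2-/- mice and 13 in control mice. Keratocyte-like cells held 67.7% of all Foxc2 UMIs in NC-Foxc2-/- mice and 11.0% in control mice. Of the UMIs of all genes in kept cells they held 43269904 of 94644512 in NC-Foxc2-/- mice and 30490324 of 119599692 in control mice. In the order of the classes by Foxc2 level, none of the first 8 in NC-Foxc2-/- mice, led by the uveal meshwork, stood apart from the next beyond counting error. In control mice the order ran pericyte-like cells, uveal meshwork, fibroblasts, TM-2, TM-1, TM-3, endothelial and smooth muscle-like cells. There fibroblasts, TM-2 and TM-1 did not stand apart from one neighbour to the next, nor did TM-3, endothelial and smooth muscle-like cells.

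In endothelial cells, which are largely of mesodermal origin in the eye, Foxc2 had 8 UMIs (4.64 CPM) in NC-Foxc2-/- mice and 56 (25.2 CPM) in control mice. The class differed in makeup, since the subcluster that the study names SC (Schlemm's canal) and lymphatic endothelial cells held 23 cells in NC-Foxc2-/- mice and 84 in control mice, and 8 markers of these cells summed to 1249 CPM in NC-Foxc2-/- endothelial cells and 4523 CPM in control ones. Within that subcluster there were 3 UMIs (16.1 CPM) in NC-Foxc2-/- mice and 36 (42.8 CPM) in control mice, and the ratio of 0.377 included equality (0.0743 to 1.19). In the other endothelial subclusters together there were 5 UMIs (3.25 CPM) in NC-Foxc2-/- mice and 20 (14.5 CPM) in control mice, a ratio of 0.224 (0.0657 to 0.615). These subclusters differed in makeup as well. The blood endothelial subcluster BEC-2 held 59 cells in NC-Foxc2-/- mice and 12 in control mice, and BEC-5 held 14 in NC-Foxc2-/- mice and 43 in control mice. A further subcluster of 22 cells was found in NC-Foxc2-/- mice only. The part of this makeup in the ratio was not tested.

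**Figure D1:**
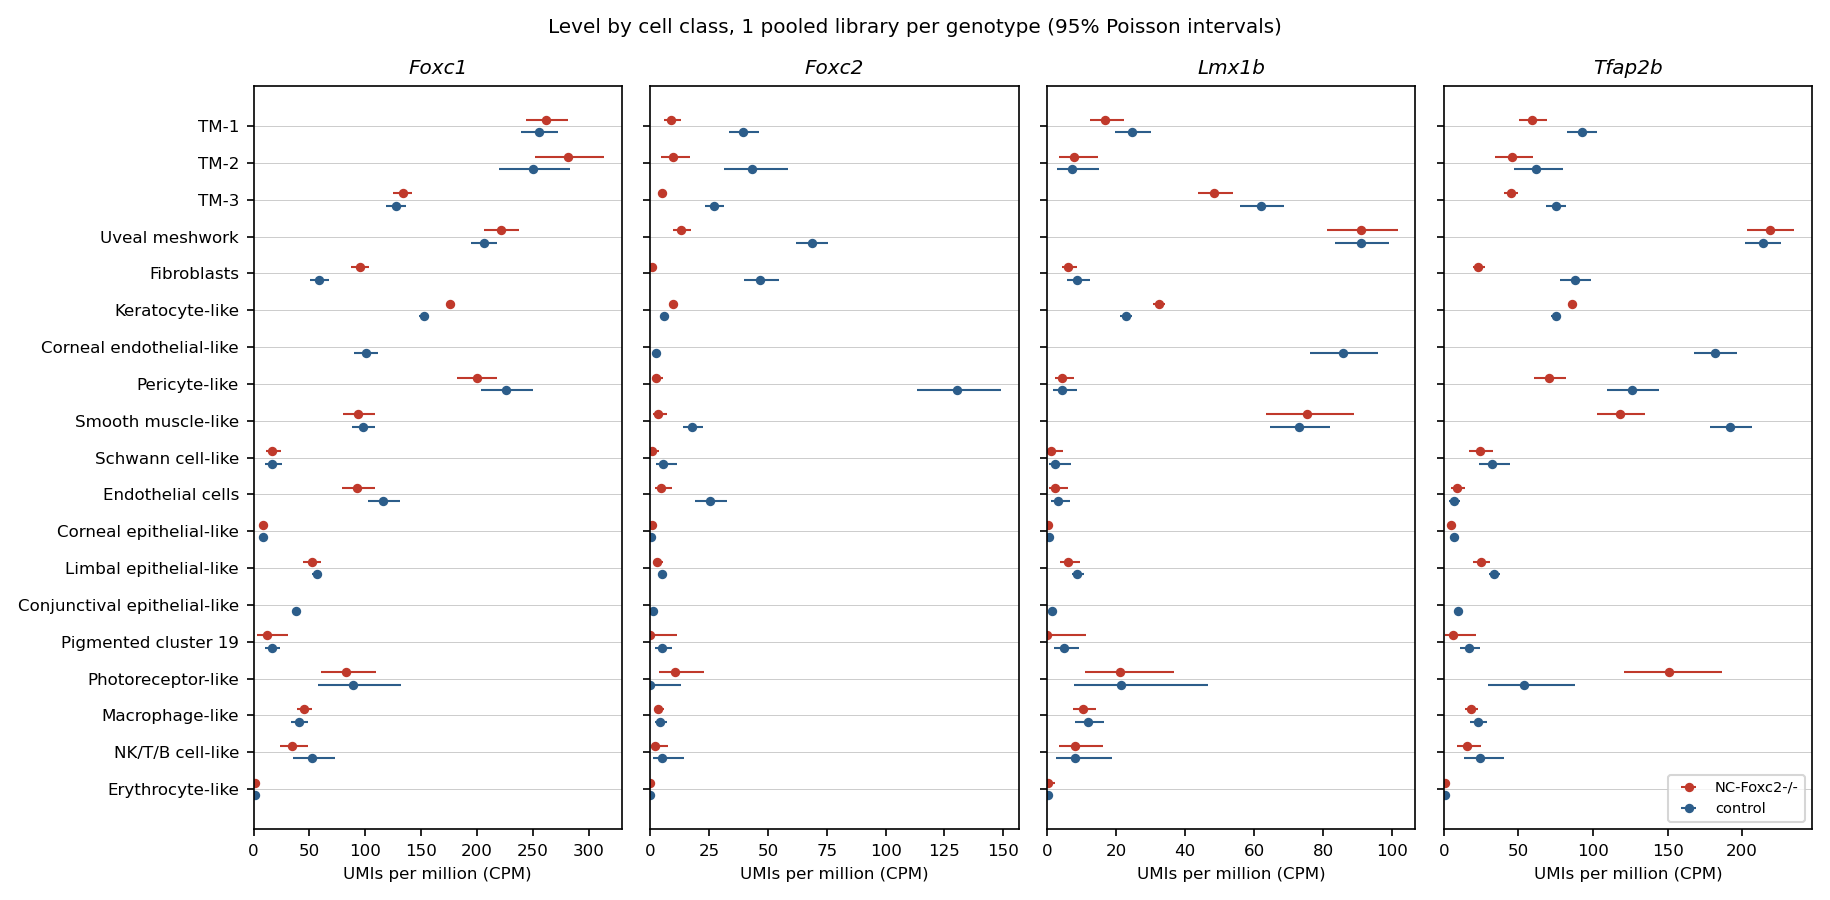
Level of Foxc1, Foxc2, Lmx1b and Tfap2b (x axis, CPM) in each cell class (rows), with NC-Foxc2-/- cells in red above control cells in blue, bars showing exact Poisson 95% intervals and classes under 50 cells left out. Foxc1 points of both genotypes lie side by side in the meshwork rows, Foxc2 is lower in NC-Foxc2-/- cells in 7 of the mesenchymal and mural rows, and Tfap2b is lower in fibroblasts (23.1 against 87.9 CPM).

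Foxc1, the closest relative of the deleted gene, held its level in the meshwork. The clusters together had 2835 UMIs (190.0 CPM, 183 to 197) in NC-Foxc2-/- mice and 3208 UMIs (190.3 CPM, 184 to 197) in control mice, a ratio of 0.999 (0.949 to 1.05). In each cluster alone the ratio was slightly above 1 with an interval that included it. TM-1 had 262 CPM in NC-Foxc2-/- mice and 256 CPM in control mice, TM-2 282 and 249.9 CPM, TM-3 133 and 127 CPM, and the uveal meshwork 221 and 206 CPM. The upper bounds of the 4 ratios were 1.13, 1.34, 1.15 and 1.18, so that counting error leaves room for a rise of at most that size in these libraries. With the 4 clusters given equal weight the ratio was 1.07, because TM-3, the cluster lowest in Foxc1, made up more of the meshwork cells in NC-Foxc2-/- mice (1142 of 2490) than in control mice (852 of 2676).

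Outside the meshwork Foxc1 was not level everywhere. Fibroblasts had 566 UMIs (94.9 CPM, 87.2 to 103) in NC-Foxc2-/- mice and 195 UMIs (58.7 CPM, 50.8 to 67.5) in control mice, a ratio of 1.62 (1.37 to 1.91), which stayed under the 2-fold limit. In the same cells the 5 markers of the beam clusters TM-1 and TM-2, which are high in Foxc1, summed to 627 CPM in NC-Foxc2-/- mice and 338 CPM in control mice, and their part was not tested. Keratocyte-like cells had 176 CPM in NC-Foxc2-/- mice and 152 CPM in control mice, a ratio of 1.15 (1.11 to 1.197), but 0.980 after thinning to 1000 UMIs. Pericyte-like cells, where Foxc2 was nearly absent in the mutant, had 199.7 CPM in NC-Foxc2-/- mice and 226 CPM in control mice (ratio 0.883, 0.771 to 1.01), and smooth muscle-like cells had 93.7 CPM in NC-Foxc2-/- mice and 98.1 CPM in control mice (0.955, 0.793 to 1.15). Endothelial cells had 92.8 CPM in NC-Foxc2-/- mice and 116 CPM in control mice (0.798, 0.651 to 0.976).

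The order of the classes by Foxc1 was alike in both libraries. In NC-Foxc2-/- mice it ran TM-2, TM-1, uveal meshwork, pericyte-like, keratocyte-like and TM-3 cells, and in control mice TM-1, TM-2, pericyte-like, uveal meshwork, keratocyte-like and TM-3 cells. Among these neighbours TM-1 and TM-2 did not differ beyond counting error in either library, nor did the uveal meshwork and pericyte-like cells. Fibroblasts stood just behind TM-3 in NC-Foxc2-/- mice, and behind photoreceptor-like cells (89.1 CPM) in control mice. Leukocytes had 42.9 CPM in NC-Foxc2-/- mice and 42.3 CPM in control mice, above corneal epithelial-like cells (8.02 CPM in NC-Foxc2-/- mice and 8.01 CPM in control mice) and erythrocyte-like cells (1.54 CPM in NC-Foxc2-/- mice and 1.34 CPM in control mice). Of the leukocytes, 7.91% in NC-Foxc2-/- mice and 7.52% in control mice were called doublets, and the part of doublets in this level was not tested. The meshwork lay 4.43 times above leukocytes in NC-Foxc2-/- mice and 4.50 times in control mice. In cells thinned to 2000 UMIs, 27.6% of meshwork cells had a Foxc1 UMI in NC-Foxc2-/- mice and 30.3% in control mice (unthinned 55.9% and 59.5%), against 5.15% and 1.802% of leukocytes. Cells under 2000 UMIs were left out, 88 of the meshwork in NC-Foxc2-/- mice and 52 in control mice.

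Lmx1b, the LIM homeodomain factor, was highest in the uveal meshwork, smooth muscle-like cells, corneal endothelial-like cells (85.6 CPM in control mice) and TM-3 among the named classes. In the uveal meshwork it had 314 UMIs (90.9 CPM, 81.1 to 102) in NC-Foxc2-/- mice and 539 UMIs (90.9 CPM, 83.4 to 98.9) in control mice, a ratio of 1.00 (0.868 to 1.15). Smooth muscle-like cells had 75.3 CPM in NC-Foxc2-/- mice and 72.9 CPM in control mice. The pooled meshwork did not pass the 2-fold limit, with 49.1 CPM in NC-Foxc2-/- mice and 60.8 CPM in control mice, a ratio of 0.807 (0.733 to 0.888), and TM-3 had 48.5 CPM in NC-Foxc2-/- mice and 62.0 CPM in control mice (0.782, 0.675 to 0.904). TM-1 had 48 UMIs (16.8 CPM) in NC-Foxc2-/- mice and 91 UMIs (24.6 CPM) in control mice, and TM-2 had 7.73 CPM in NC-Foxc2-/- mice and 7.23 CPM in control mice. Within the larger part of TM-3 the difference of that cluster was not seen. Its cells of rebuilt cluster 6 had 72.0 CPM in NC-Foxc2-/- mice and 70.9 CPM in control mice (1.02, 0.870 to 1.19), and those of cluster 9, with 11.5 CPM in NC-Foxc2-/- mice and 17.8 CPM in control mice, were low in both (0.649, 0.351 to 1.24). Cluster 9 held 46.8% of TM-3 cells in NC-Foxc2-/- mice (43.8 to 49.7) and 20.2% in control mice (17.5 to 23.04). Keratocyte-like cells did not pass the limit either, with 32.4 CPM in NC-Foxc2-/- mice and 22.9 CPM in control mice (1.42, 1.29 to 1.55), in both of their clusters. In the order of the classes by Lmx1b the uveal meshwork did not stand apart from the next class in either library, and smooth muscle-like cells stood apart above TM-3 in both.

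Tfap2b, which encodes AP-2β, was highest in the uveal meshwork among the compared named classes in both libraries and was at like levels there, with 756 UMIs (219 CPM, 204 to 235) in NC-Foxc2-/- mice and 1268 UMIs (214 CPM, 202 to 226) in control mice (ratio 1.02, 0.934 to 1.12). It was lower in fibroblasts. In TM-1, TM-3, pericyte-like and smooth muscle-like cells the ratio lay below 1 with an interval that left out equality, but did not pass the 2-fold limit, and in TM-2 the ratio of 0.735 included equality (0.498 to 1.08). Fibroblasts had 138 UMIs (23.1 CPM, 19.4 to 27.3) in NC-Foxc2-/- mice and 292 UMIs (87.9 CPM, 78.1 to 98.6) in control mice, a ratio of 0.263 (0.213 to 0.323). That level was 1.32 times that of leukocytes in NC-Foxc2-/- mice (0.999 to 1.74) and 3.80 times in control mice. The uveal meshwork markers in fibroblasts, given above with Foxc2, were lower in NC-Foxc2-/- mice too. Their part in the fibroblast Tfap2b ratio was not tested. Pericyte-like cells had 70.7 CPM in NC-Foxc2-/- mice and 126 CPM in control mice (0.561, 0.456 to 0.689), and smooth muscle-like cells had 118 CPM in NC-Foxc2-/- mice and 192 CPM in control mice (0.615, 0.526 to 0.716). The 10 pericyte markers summed to 6681 CPM in pericyte-like cells of NC-Foxc2-/- mice and 9377 CPM in those of control mice, and the 11 smooth muscle markers to 18030 CPM in NC-Foxc2-/- mice and 13269 CPM in control mice. Their part in the Tfap2b ratio was not tested. TM-1 had 59.2 CPM in NC-Foxc2-/- mice and 92.4 CPM in control mice (0.641, 0.530 to 0.773), and TM-3 had 45.0 CPM in NC-Foxc2-/- mice and 74.9 CPM in control mice (0.600, 0.520 to 0.692). Fibroblasts stood beside TM-1 in the control order, whereas in NC-Foxc2-/- mice they stood below TM-3.

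Within both rebuilt clusters of TM-3 the Tfap2b ratio lay below 1, with an interval that left out equality, but short of the 2-fold limit. Cluster 6 had 59.6 CPM in NC-Foxc2-/- mice and 79.7 CPM in control mice (0.747, 0.636 to 0.876), and cluster 9 had 18.8 CPM in NC-Foxc2-/- mice and 36.6 CPM in control mice (0.516, 0.331 to 0.813). In TM-3 as a whole the 9 corneal endothelial markers, whose cells are rich in Tfap2b and Lmx1b, summed to 1239 CPM in NC-Foxc2-/- mice and 2379 CPM in control mice, with 0 of 8 measured markers higher, and their part was not tested. In TM-1 cells of cluster 1 there were 68.6 CPM in NC-Foxc2-/- mice and 94.1 CPM in control mice (0.729, 0.600 to 0.883). The pooled meshwork had 88.0 CPM in NC-Foxc2-/- mice and 127 CPM in control mice, a ratio of 0.694 (0.647 to 0.743), and 0.832 with equal weight of the clusters. Keratocyte-like cells had 85.7 CPM in NC-Foxc2-/- mice and 75.2 CPM in control mice (1.14, 1.082 to 1.201), but a ratio of 1.01 after thinning to 1000 UMIs.

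**Figure D2:**
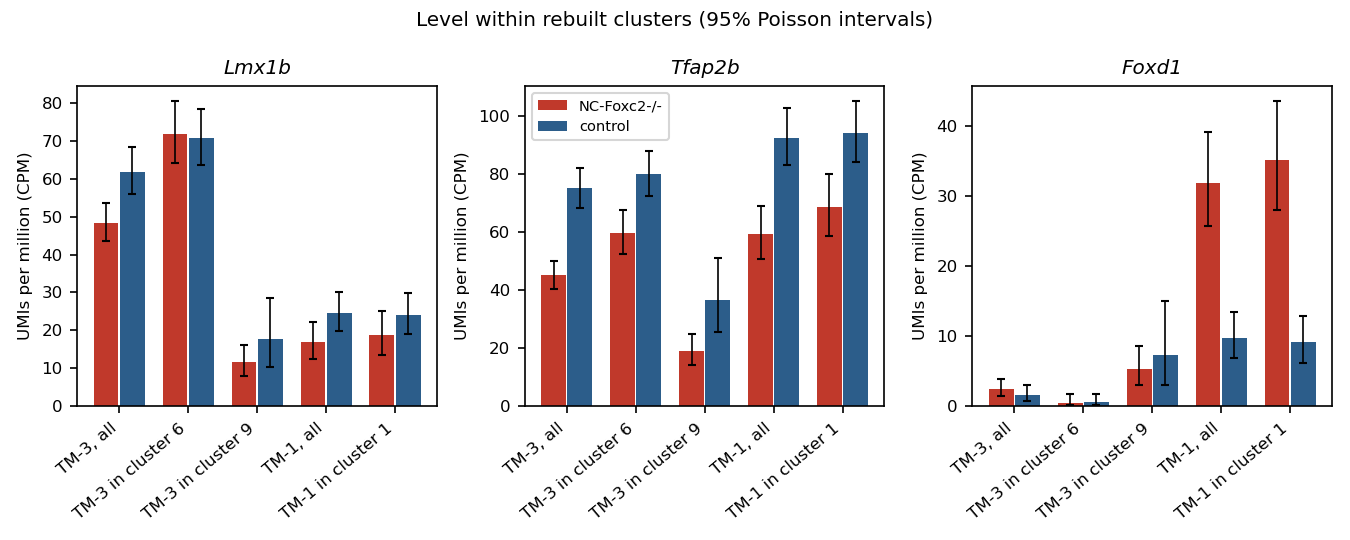
Level of Lmx1b, Tfap2b and Foxd1 (y axis, CPM) in TM-3 and TM-1 cells and in the parts of them that fall in rebuilt clusters 6, 9 and 1, with NC-Foxc2-/- bars in red left of control bars in blue and error bars showing exact Poisson 95% intervals. Lmx1b is level in cluster 6 (72.0 CPM in NC-Foxc2-/- mice and 70.9 CPM in control mice), the Tfap2b bar of NC-Foxc2-/- cells is the shorter one in each cluster shown (ratios 0.516 to 0.747, short of the 2-fold limit), and Foxd1 is higher in NC-Foxc2-/- TM-1 cells.

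Foxd1, a forkhead factor, was the member with the largest share of its UMIs in the meshwork and was higher there in the mutant. The meshwork clusters held 150 of 188 Foxd1 UMIs in NC-Foxc2-/- mice and 55 of 79 in control mice. Their level was 10.1 CPM (8.51 to 11.8) in NC-Foxc2-/- mice and 3.26 CPM (2.46 to 4.25) in control mice, a ratio of 3.08 (2.25 to 4.28). In TM-1 it had 91 UMIs (31.9 CPM, 25.7 to 39.2) in NC-Foxc2-/- mice and 36 UMIs (9.72 CPM, 6.81 to 13.5) in control mice, a ratio of 3.28 (2.21 to 4.97), and within cluster 1 of TM-1 it was 3.87 (2.53 to 6.05). These cells held more signal of red cell genes too, 4974 CPM of 9 markers in NC-Foxc2-/- mice and 2566 CPM in control mice, and its part was not tested. TM-2 had 28 Foxd1 UMIs (24.1 CPM) in NC-Foxc2-/- mice and 7 (7.23 CPM) in control mice. The uveal meshwork had 13 UMIs in NC-Foxc2-/- mice and 2 in control mice. TM-3 had 18 UMIs in NC-Foxc2-/- mice and 10 in control mice, with a ratio of 1.51 that included equality (0.662 to 3.67). In cells thinned to 2000 UMIs, a Foxd1 UMI was found in 5.27% of TM-1 cells in NC-Foxc2-/- mice and 1.32% in control mice (unthinned 12.02% and 3.61%). TM-1 and TM-2 led the classes in both libraries and did not stand apart from each other. The background was low, at 1 UMI over all leukocytes in NC-Foxc2-/- mice and 0 in control mice, which allows up to 0.857 CPM.

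**Figure D3:**
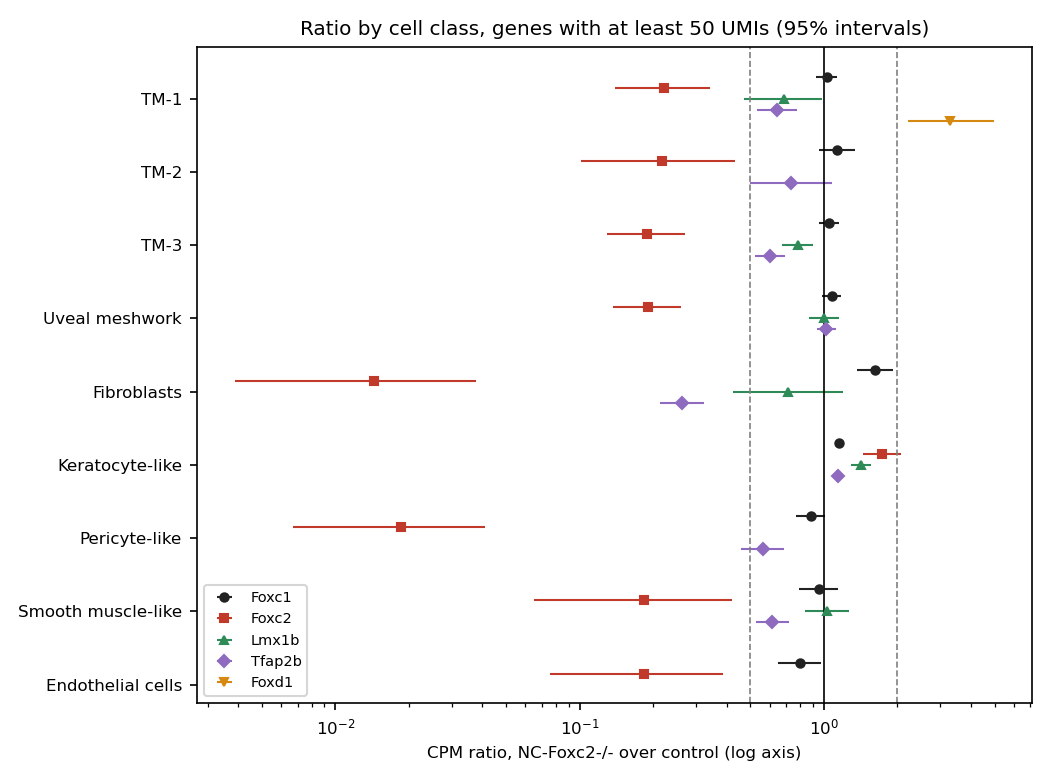
Ratio of CPM in NC-Foxc2-/- cells over control cells (x axis, log scale) for Foxc1, Foxc2, Lmx1b, Tfap2b and Foxd1 in 9 cell classes (rows), where the gene had at least 50 UMIs over both libraries, with bars for exact binomial 95% intervals, a solid line at 1 and dashed lines at 0.5 and 2. Foxc1 stays near 1 in the meshwork rows (1.03 to 1.13), and Foxc2 is lowest in fibroblasts (0.0144) and pericyte-like cells (0.0185).

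Pax6 and Tfap2a were found in the epithelial-like classes and in a few others. Pax6 had 81.0 CPM in NC-Foxc2-/- mice and 74.3 CPM in control mice in corneal epithelial-like cells (ratio 1.09, 0.983 to 1.21), and in limbal epithelial-like cells 72.4 CPM in NC-Foxc2-/- mice and 83.8 CPM in control mice (0.865, 0.744 to 1.002), of whose rebuilt cluster 32.1% of cells were called doublets. The pooled meshwork had 7 Pax6 UMIs (0.469 CPM) in NC-Foxc2-/- mice and 6 (0.356 CPM) in control mice, within the leukocyte background in both. Cluster 19, led by Ttr and the pigment genes Tyrp1 and Pmel, had 151 CPM in NC-Foxc2-/- mice and 85.1 CPM in control mice (1.78, 1.26 to 2.47). The 9 melanocyte markers summed to 6824 CPM there in NC-Foxc2-/- mice and 29854 CPM in control mice, and the 9 red cell markers to 16217 CPM in NC-Foxc2-/- mice and 1056 CPM in control mice, and their part in the Pax6 ratio was not tested. Over all kept cells Pax6 had 9.46 CPM in NC-Foxc2-/- mice and 32.2 CPM in control mice, where the epithelial-like classes were smaller in NC-Foxc2-/- mice (320 corneal and 164 limbal cells in NC-Foxc2-/- mice, against 946 corneal and 512 limbal cells in control mice).

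Tfap2a had 30.0 CPM in NC-Foxc2-/- mice and 28.5 CPM in control mice in corneal epithelial-like cells (1.05, 0.884 to 1.25), and in limbal epithelial-like cells 36.2 CPM in NC-Foxc2-/- mice and 38.2 CPM in control mice (0.947, 0.762 to 1.17). Schwann cell-like cells, glia of neural crest origin, had 65 UMIs (41.2 CPM, 31.8 to 52.5) in NC-Foxc2-/- mice and 32 UMIs (25.4 CPM, 17.4 to 35.9) in control mice, a ratio of 1.62 (1.05 to 2.56). In the meshwork the gene had few UMIs, with 41 (2.75 CPM) in NC-Foxc2-/- mice and 11 (0.652 CPM) in control mice. Of these, TM-3 held 33 in NC-Foxc2-/- mice and 1 in control mice, and the TM-3 cells of cluster 9 held 26 in NC-Foxc2-/- mice and 0 in control mice. TM-3 in NC-Foxc2-/- mice stood 5.42 times above leukocytes (1.93 to 21.1). The 10 corneal epithelial markers summed to 214 CPM in TM-3 of NC-Foxc2-/- mice and 377 CPM in control mice, and the 15 Schwann cell markers to 176 CPM in NC-Foxc2-/- mice and 221 CPM in control mice. Their part in the Tfap2a counts was not tested. After thinning to 1000 UMIs, 5 Tfap2a UMIs were left in the pooled meshwork of NC-Foxc2-/- mice and 4 in that of control mice, and a difference was not detectable at this depth.

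**Figure D4:**
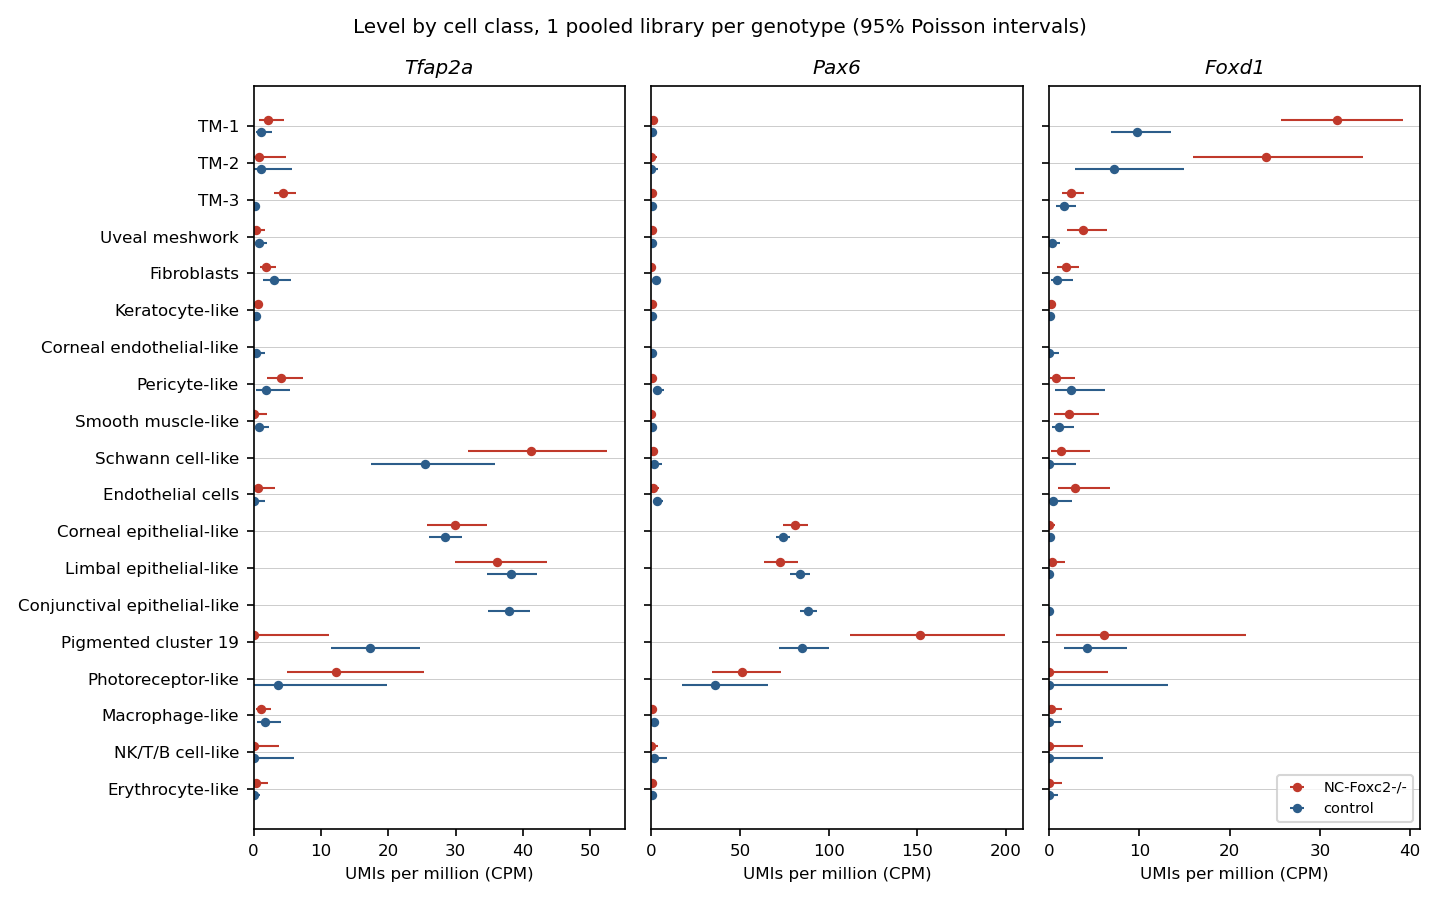
Level of Tfap2a, Pax6 and Foxd1 (x axis, CPM) in each cell class (rows), with NC-Foxc2-/- cells in red above control cells in blue, bars showing exact Poisson 95% intervals and classes under 50 cells left out. In the corneal and limbal epithelial-like rows Tfap2a and Pax6 are at like levels in both genotypes, the highest NC-Foxc2-/- levels are in Schwann cell-like cells for Tfap2a (41.2 CPM in NC-Foxc2-/- mice and 25.4 CPM in control mice) and in cluster 19 for Pax6 (151 CPM in NC-Foxc2-/- mice and 85.1 CPM in control mice), and Foxd1 is highest in TM-1 (31.9 CPM in NC-Foxc2-/- mice and 9.72 CPM in control mice) and TM-2.

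The families and partners of the members gave the setting for these values. Of 24 transcription factors of the periocular mesenchyme and angle, 20 had at least 50 UMIs in the pooled meshwork, of which 6 were higher and 0 lower, where 4.41% of all genes passed in either direction, with a median log2 ratio of 0.22 against 0.03 over all genes. Ebf1, an early B cell factor that also acts in mesenchyme, had 89.2 CPM in NC-Foxc2-/- mice and 24.02 CPM in control mice (3.71, 3.32 to 4.16). In TM-3 alone it had 111 CPM in NC-Foxc2-/- mice and 19.97 CPM in control mice. Fibroblasts had 380 CPM in NC-Foxc2-/- mice and 422 CPM in control mice, and pericyte-like cells 603 and 679 CPM. Cluster 9 held 46.8% of TM-3 cells in NC-Foxc2-/- mice and 20.2% in control mice. The part of cell makeup in the Ebf1 ratio was not tested. Sox9, the cartilage and progenitor factor, had 206 CPM in NC-Foxc2-/- mice and 141 CPM in control mice (1.46, 1.38 to 1.54), and Eya2, a transcriptional coactivator, had 42.7 CPM in NC-Foxc2-/- mice and 80.7 CPM in control mice (0.529, 0.481 to 0.581). Rarb, a retinoic acid receptor, had 30.9 CPM in NC-Foxc2-/- mice and 46.3 CPM in control mice (ratio interval 0.593 to 0.749), but in TM-3 it had 11.8 CPM in NC-Foxc2-/- mice and 7.51 CPM in control mice (1.57, 1.09 to 2.29).

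Of the 21 other forkhead genes with at least 50 UMIs in the pooled meshwork, 0 were higher and 1 was lower, with a median log2 ratio of 0.28. For this and the lists that follow, 4.41% of all genes passed in the pooled meshwork, and their median log2 ratio was 0.03. The lower one was Foxs1, a forkhead gene of pericytes and of the neural crest, with 55.9 CPM in NC-Foxc2-/- mice and 112 CPM in control mice (0.498, 0.458 to 0.540). Foxp2 had 28.2 CPM in NC-Foxc2-/- mice and 16.1 CPM in control mice (1.75), Foxj3 had 29.2 CPM in NC-Foxc2-/- mice and 20.5 CPM in control mice (1.42), and Foxo3 had 37.9 CPM in NC-Foxc2-/- mice and 46.8 CPM in control mice (0.809). No other gene of the AP-2 or LIM homeobox families reached 50 UMIs in the meshwork. Of 6 neural crest lineage genes that did, 1 was higher (Ngfr, the p75 neurotrophin receptor, named here after its value was seen, at 11.0 CPM in NC-Foxc2-/- mice and 4.74 CPM in control mice) and 0 lower, with a median log2 ratio of 0.53. Snai1, which drives epithelial to mesenchymal transition, had 37.5 CPM in NC-Foxc2-/- mice and 26.3 CPM in control mice (1.43), while Twist1 had 263 CPM in NC-Foxc2-/- mice and 259.8 CPM in control mice (1.01) and Ets1 had 182 CPM in NC-Foxc2-/- mice and 191 CPM in control mice (0.953). Of 7 FOXC-linked vascular genes, 1 was higher and 1 lower, with a median log2 ratio of 0.16. The higher one was Cxcr4, the receptor of Cxcl12, likewise named after its value was seen, with 17.3 CPM in NC-Foxc2-/- mice and 7.95 CPM in control mice (2.18, 1.76 to 2.70). The lower one was Gja4, which encodes a gap junction protein of vessels and mural cells, with 108 CPM in NC-Foxc2-/- mice and 238 CPM in control mice (0.455, 0.429 to 0.482), while in TM-2 its ratio of 1.23 included equality (0.817 to 1.86). Gja4 was not lower in the meshwork alone. Pericyte-like cells had 1298 CPM in NC-Foxc2-/- mice and 2788 CPM in control mice (0.466). Its ratio was 0.490 in smooth muscle-like cells and 0.0619 in fibroblasts (8 UMIs in NC-Foxc2-/- mice and 72 in control mice). Limbal epithelial-like cells had a ratio of 0.0991 (14 and 483 UMIs) and Schwann cell-like cells of 0.0456 (4 and 70 UMIs). The part of doublets and of signal from other cells in these ratios was not tested. Gja4 did not pass in keratocyte-like (1.02) or endothelial cells (0.897). Cxcl12 had 407 CPM in NC-Foxc2-/- mice and 528 CPM in control mice (0.771, 0.746 to 0.797) in the pooled meshwork, but went the other way in TM-3, the cluster with the least of it, with 119 CPM in NC-Foxc2-/- mice and 71.1 CPM in control mice (1.67, 1.49 to 1.88). Nfatc1 had 56.6 CPM in NC-Foxc2-/- mice and 50.6 CPM in control mice (1.12). Of 4 ocular surface and optic cup factors, 0 passed, with a median log2 ratio of -0.07, among them Klf4 with 723 CPM in NC-Foxc2-/- mice and 865 CPM in control mice (0.837) and Klf5 with 115 CPM in NC-Foxc2-/- mice and 154 CPM in control mice (0.750).

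Across 42 values, each 1 class in 1 library, the genes most like each member were ranked by Pearson's r of log2(CPM + 1), a description in which classes share library and depth. Lmx1b was most like C130021I20Rik (r = 0.94), an antisense transcript that starts 682 bases from it on the opposite strand, followed by Cemip (0.91) and Zfhx4 (0.89). Zfhx4 also led for Tfap2b (0.92), before Arhgef25 (0.91) and Sdc2 (0.90), and Tfap2b and Lmx1b had r = 0.87. Foxc1 was most like Zfp503 (0.90) and Sntb2 (0.89), and Foxd1 like Gm14964 (0.87), Gm30648 (0.83) and Eya1 (0.83). Foxc2 had the loosest leaders, Chst1 (0.76), Trh (0.74) and Hic1 (0.73). Pax6 was most like Meis2 (0.91), 2700033N17Rik (0.91) and E130218I03Rik (0.89), and Tfap2a like Tgm1 (0.85), Inava (0.84) and Mmp28 (0.82). Foxc1 and Foxc2 had r = 0.67, and Pax6 was negatively related to Foxc1 (-0.38), Lmx1b (-0.46) and Tfap2b (-0.36).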

How the data were processed

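Anterior segments of NC-Foxc2-/- and control mice were measured by droplet-based 3' single-cell RNA sequencing, 1 pooled library each. The deposited matrices hold UMI counts per gene and barcode, which the authors made with Cell Ranger 4.0.0 on mm10. A combined table of both libraries, also deposited by the authors as counts, gave the cell filter and the clusters, and all of its 22941 barcodes are those of the matrices. Its counts differ from the matrices for 20 of 19217 genes, none of them a member, so sums come from the matrices.

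Cells over 8% mitochondrial UMIs were left out. Values scaled to 10000 UMIs per cell over 14039 genes were matched to the cells of the paper's source data at 0.55 of the last printed digit, which gave the study's names to 98.5% to 100% of the cells of each listed cluster. Other classes came from 26 Leiden clusters (scanpy 1.11.5, leidenalg 0.10.2, 2336 variable genes, 15 principal components, 25 neighbors, resolution 0.8). Scrublet doublets were kept. The study removed doublet clusters, which was not repeated. Counts were summed per class, with exact Poisson and Clopper-Pearson 95% intervals (SciPy 1.17.1). A gene was called higher at a ratio of 2 or more and lower at 0.5 or less, given 50 UMIs or more in the 2 libraries together. This is a limit of size, with no test. Where a sum was 0, the limit is 3 counts. The rule was tested on simulated data.

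The members and gene lists were chosen with earlier results of these data known. Named are all members, the 2 highest and 2 lowest genes of each list in the pooled meshwork with at least 20 CPM in 1 library, and the 3 genes most like each member among those with at least 200 UMIs. Alternatives covered names, resolution, doublets, the mitochondrial filter, scaling, thinning and weights. Gene positions come from GENCODE M21. A few results that the rules above would name are not reported here.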

Additional observations from a re-analysis of the deposited data

Results flagged for a closer look

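Foxc2 and Tfap2b were each past the 2-fold limit in opposite directions in different classes, and the difference between the classes was not tested. Foxc2 had a ratio of 2.42 in keratocyte-like cells of cluster 0 and of 0.0144 in fibroblasts. Tfap2b had a ratio of 2.82 in photoreceptor-like cells and of 0.263 in fibroblasts. The photoreceptor-like cells held 86 Tfap2b UMIs (151 CPM) in NC-Foxc2-/- mice and 15 (53.5 CPM) in control mice. Their 5 photoreceptor markers summed to 5106 CPM in NC-Foxc2-/- mice and 21792 CPM in control mice, and their median depth was 2663 UMIs in NC-Foxc2-/- mice and 1337 UMIs in control mice. The part of these values in the Tfap2b ratio was not tested.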

How the results depend on the processing

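Ratios in the pooled meshwork stayed within the counting interval of the reported value, and none changed direction past the 2-fold limit, when names were joined at 0.5 of the last digit, taken from rebuilt clusters (here clusters most of whose cells carry a study name, not marker names), or when doublets were left out, the mitochondrial filter dropped, or the total or median rescaled. Equal weight of the clusters moved Foxc1 to 1.07 and Tfap2b to 0.832. Thinning to 1000 UMIs moved Foxc2 to 0.272 and Tfap2a to 1.35, on few UMIs, and could not be run for Pax6. Leaving out clusters over 15% doublets, and the values of single rebuilt clusters, were alternatives chosen after seeing the data; without those clusters the Foxc2 ratio in keratocyte-like cells was 2.42, and at resolutions 0.4 and 1.2 it was 2.22 and 2.25. The count of genes past the 2-fold limit in the pooled meshwork, 535, was 2021 at a limit of 1.5-fold and 901 with at least 20 UMIs, and in all 28 classes these limits moved the count by over 1.5 times. No paired analysis was possible because each genotype was 1 library. No replicate could be left out for the same reason. Counts under 50 UMIs, as for Pax6 and Tfap2a in the meshwork clusters, limit what can be seen there.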
